A study of Homo sapiens with 18 samples.

Results

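Regions that carry both the repressive mark H3K9me3 and the promoter mark H3K4me3 were examined in NB4 cells, an established human cell line of acute promyelocytic leukemia. Cells had been treated with 10 µM maltonis, a synthetic hydroxypyrone made from maltol, for 24 h, or had been left untreated (NT). ChIP-seq, the sequencing of immunoprecipitated chromatin, was available for H3K4me3, H3K9me3 and H3K27ac, with 3 libraries per mark and condition, 18 libraries in all. Each library had its own list of enriched regions (peaks), and 1 cell line was the only model. The paper describes the replicates as biological, while the labels do not say whether they came from separate cultures, so p-values measure the spread between these libraries only.

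The regions were chosen by measured values, namely the presence of peaks. H3K9me3 peaks of the 6 libraries that shared at least 1 bp were joined, and 13714 merged regions on chromosomes 1 to 18 and 20 to 22 had a peak in all 6 lists. Of these, 1628 also overlapped an H3K4me3 peak in at least 3 of the 6 H3K4me3 lists. These 1628 regions, 11.9% of the 13714, are called H3K9me3/H3K4me3 regions here. A further 1297 had H3K4me3 in 1 or 2 lists, and 10789 had it in none.

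H3K9me3 is laid down by the SUV39H and SETDB1 methyltransferases and is bound by HP1 proteins, and it is best known from constitutive heterochromatin and silenced repeats. H3K4me3 is laid down by SET1 and MLL complexes and marks the start sites of active or poised genes, while H3K27ac, laid down by CBP and p300, marks active promoters and enhancers. H3K9me3 and H3K4me3 are usually found apart. ChIP-seq on a population of cells cannot tell 2 marks on one chromatin fibre from marks on different alleles or in different cells.

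The H3K9me3 lists held 2595814 to 3366296 reads in peaks, and the H3K27ac lists held 17974940 to 20773316, while H3K4me3 peaks came without read counts. Maltonis replicate 3 of H3K9me3 had the fewest reads in peaks, and the differences between H3K9me3 medians below are also given without it. No 2 lists of a mark shared more than 0.0814% of their peaks with identical boundaries and counts. Coordinates are those of the lists, counted from 1, and the build named in the labels is hg19. Gene names and sequences of that build were not used here, so regions are named by position.

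In most H3K9me3/H3K4me3 regions the H3K4me3 peak was found in every library. H3K4me3 was present in all 6 lists in 1153 of the 1628 regions. Another 231 regions had it in more untreated than maltonis lists, including 41 with all 3 untreated lists and no maltonis list. In the opposite direction, 193 regions had it in more maltonis than untreated lists, including 38 with no untreated list and all 3 maltonis lists. The remaining 51 had 2 lists of each condition. An H3K4me3 peak was called in 1466, 1469 and 1483 of the regions in the untreated libraries and in 1448, 1440 and 1456 after maltonis. Each maltonis library thus had fewer than each untreated one. The whole H3K4me3 lists also held fewer peaks, with 17482, 17335 and 17755 untreated and 16383, 15841 and 16003 after maltonis. The lower counts were therefore not confined to these regions.

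On either side of the threshold of 3 lists, the regions had similar widths and read densities. The 191 regions with exactly 3 lists had a median merged width of 13600 bp and a median of 17.9 H3K9me3 reads per called kb over the 6 libraries. The 305 regions with exactly 2 lists had medians of 12000 bp and 18.3 reads per kb. The median log2 fold change of H3K9me3 reads, maltonis over untreated, was 0.05 with exactly 3 lists and 0.02 with exactly 2. With no list it was -0.02, and with all 6 it was 0.14, so the threshold cuts a gradual change.

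H3K4me3 covered a small part of most regions, and in most overlaps it lay wholly inside. To place it, H3K4me3 peaks of all 6 libraries were merged, and merged regions called in at least 3 lists served as a reference. Such a reference region was found on 1573 of the 1628 regions, and the other 55 reached 3 lists only through separate H3K4me3 regions. In 1433 regions there was 1 reference region, in 140 there were 2 or more, and the highest number was 8. Of 1772 overlaps, 1394 (78.7%) had H3K4me3 wholly inside the H3K9me3 region, 374 crossed one of its ends and 4 covered it. The centre of the H3K4me3 region lay in the outer 40% of the H3K9me3 region or beyond its ends in 46.1% of overlaps. In 17.7% it lay in the middle 20%. Overlaps across an end are included, so these shares do not show a preference for the ends. Reference H3K4me3 covered a median of 17.0% of the merged width, with quartiles of 9.51% and 28.5%.

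The H3K9me3/H3K4me3 regions were broad. Their merged width had a median of 11000 bp, with quartiles of 7400 and 17600 bp and a range from 400 to 460800 bp, against a median of 8200 bp for the 10789 shared regions without H3K4me3. Together they spanned 28.3 Mb, of which 3.61 Mb was reference H3K4me3. They were spread over all 21 chromosomes examined. Chromosomes 7, 2 and 12 held the most, with 227, 195 and 179 regions, or 36.9% of all, and the same chromosomes held 33.7% of the shared H3K9me3 regions. As a share of a chromosome's shared regions, the highest values were 16.8% on chromosomes 9 and 17, and the lowest was 6.56% on chromosome 14.

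Most of these regions also carried H3K27ac. An H3K27ac peak lay on 1447 of the 1628 regions (88.9%) in all 6 H3K27ac lists, on 106 in 1 to 5 lists and on 75 (4.61%) in none. Among shared H3K9me3 regions without H3K4me3, 896 of 10789 (8.31%) had H3K27ac in all 6 lists and 8432 (78.2%) had it in none. H3K27ac lists were fewer after maltonis on 79 of the H3K9me3/H3K4me3 regions (4.85%, against 8.41% of those without H3K4me3) and more numerous on 21 (1.29%, against 3.72%). All 3 untreated lists and no maltonis list had H3K27ac on 34 regions (2.09%, against 1.72%), and the reverse held for 4 (0.246%, against 0.501%).

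The first comparison asked whether H3K9me3 changed on these regions after maltonis. The log2 fold change of H3K9me3 reads, relative to the median shared region, had a median of 0.12 over these regions and of -0.02 over shared regions without H3K4me3. The paper reports lower total H3K9me3 after maltonis by western blot and mass spectrometry, a change that such relative values cannot show. Few regions passed the test on their own. With edgeR's quasi-likelihood test, 9 of the 1628 (0.553%) had more H3K9me3 reads, where a call needed a Benjamini-Hochberg false discovery rate (FDR) no higher than 0.01 together with a minimum log2 fold change of 0.58, against 0.253% of all 14226 shared regions tested on chromosomes 1 to 22 and X. None had fewer reads, against 0.0141% of all. DESeq2 called 49 with more (3.01%, against 0.928% of all tested) and 8 with fewer (0.491%, against 0.274%). At an unadjusted p under 0.05, edgeR had 363 regions with more reads (22.3%, against 8.6% of all tested) and 113 with fewer (6.94%, against 5.47%). Leaving out any 1 of the 6 libraries lowered the 9 calls to between 1 and 3 (0.0614% to 0.184%, against 0.00703% to 0.0844% of all).

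In values per library, median read density was lower after maltonis, and by less than in shared regions without H3K4me3. Median H3K9me3 reads per called kb, not normalised for depth, were 19.4, 19.8 and 20.2 in untreated libraries and 19.1, 19.1 and 18.4 after maltonis, means of 19.8 ± 0.366 and 18.9 ± 0.371 (SD, n = 3). Every maltonis library was below every untreated one, with a difference of means of -0.933, and of -0.718 without maltonis replicate 3. In shared regions without H3K4me3 the same median went from 18.7 ± 0.250 to 17.3 ± 0.515 (SD, n = 3), again without overlap, a difference of -1.43, and of -1.13 without that library. The ratio of the former median to the latter was 1.056, 1.052 and 1.068 in untreated libraries. It was 1.082, 1.089 and 1.105 after maltonis. A factor common to all regions of a library cancels in this ratio, but an effect of depth on the bases called need not. Maltonis replicate 3, with the fewest reads in peaks, had the highest ratio. The difference of the ratio means was 0.0336, and 0.0272 without maltonis replicate 3, and the conditions did not overlap.

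Called length, the bases under a library's H3K9me3 peaks in a region, was higher in 2 of the 3 maltonis libraries than in any untreated one. Its median was 6600, 6800 and 6800 bp in untreated libraries and 7400, 7200 and 6600 bp after maltonis, so the conditions overlapped through maltonis replicate 3. The mean difference was 333.3 bp, and 566.7 bp without that library. Regions without H3K4me3 had 5333 ± 115.5 bp untreated and 5200 ± 346.4 bp after maltonis (SD, n = 3), and this difference of -133.3 bp turned to 66.7 bp without maltonis replicate 3. As a ratio to these, the median length of H3K9me3/H3K4me3 regions was 1.26 ± 0.00576 untreated and 1.36 ± 0.0228 after maltonis (SD, n = 3), without overlap. The difference of these means was 0.0970, and 0.0893 without that library. No single region passed limma's moderated test on log2 length at an FDR of 0.05 in either direction, among the members or among all 14226 tested, where the share called was 0% for longer and 0% for shorter. That test draws the variance of each region toward a common value. At chr4:35401-496200, where called length ran only from 448800 to 454800 bp, the SE was still 0.178. The absence of calls therefore does not show that lengths were unchanged. At an unadjusted p under 0.05, 95 regions were longer (5.84%, against 3.8% of all) and 44 shorter (2.70%, against 3.30%). On the bp scale limma called 1 as longer (0.0614%, against 0.00703% of all).

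**Figure D1:**
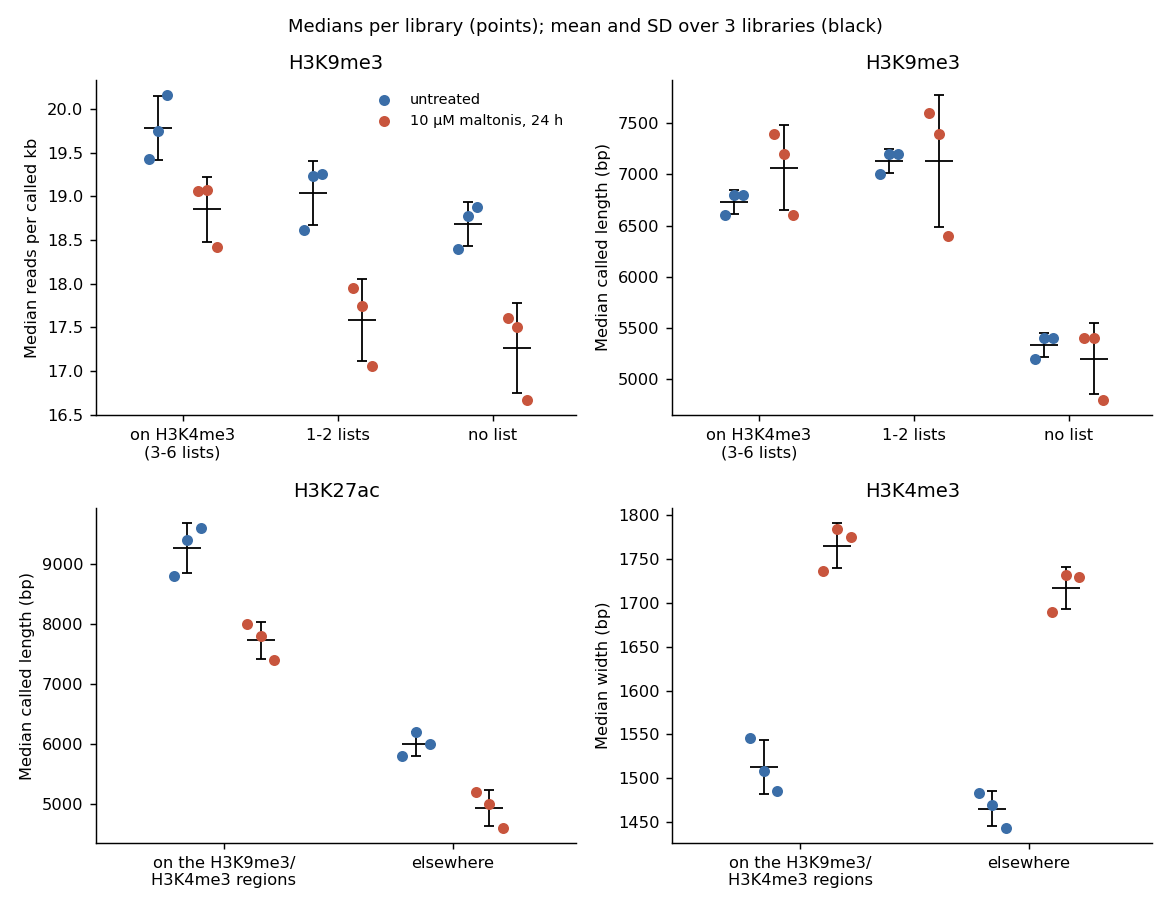
Medians per library over H3K9me3 regions with H3K4me3 in 3 to 6 lists, in 1 or 2 lists or in none (upper panels, H3K9me3 reads per called kb and called length in bp), and over H3K27ac and H3K4me3 regions lying on the 1628 H3K9me3/H3K4me3 regions or elsewhere (lower panels, bp). Points are libraries, black bars the mean and SD over 3 libraries; the axes do not start at 0. H3K4me3 widths separate by condition in both classes (means 1513 and 1766 bp on the H3K9me3/H3K4me3 regions), whereas H3K9me3 called lengths overlap.

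The rank of these peaks within each library was also followed. The epic2 island score is the score that the caller gave each peak. Each region took the highest percentile of its peaks within the list. This percentile had a median of 82.9 ± 0.445 untreated and 82.7 ± 0.490 after maltonis in H3K9me3/H3K4me3 regions (SD, n = 3). In regions without H3K4me3 it was 74.4 ± 0.622 untreated and 68.0 ± 0.537 after maltonis. The lists held 33923, 35065 and 35171 peaks untreated and 29700, 29997 and 29432 after maltonis. A percentile also moves with the number of weak peaks in the list, so a lower one need not mean weaker enrichment. The classes of regions also differed in width, and the part that width has in these percentiles was not tested. The percentiles of the H3K9me3/H3K4me3 regions overlapped between conditions (difference -0.254, and -0.142 without maltonis replicate 3). Those of regions without H3K4me3 did not (-6.36, and -6.09 without it). The H3K9me3/H3K4me3 regions took 18.9% ± 0.228 of the reads in H3K9me3 peaks in untreated libraries and 20.8% ± 0.815 after maltonis (SD, n = 3). The separate values were 19.2%, 18.9% and 18.8%, then 20.2%, 20.4% and 21.7%, without overlap, and the difference of 1.82 percentage points was 1.35 without maltonis replicate 3. Divided by the reads in all listed peaks of the library, the values of all 3 maltonis libraries lay above all 3 untreated ones in 403 regions (24.8%), against 11.3% of all shared regions. All 3 lay below in 131 (8.05%), against 8.19% of all.

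On the H3K4me3 bases themselves, H3K9me3 was called over more sequence after maltonis. Of the bases of reference H3K4me3 inside the regions, H3K9me3 peaks covered 69.6%, 69.6% and 68.8% in untreated libraries and 77.5%, 76.5% and 70.9% after maltonis. The means were 69.3% ± 0.434 and 74.96% ± 3.55 (SD, n = 3), a difference of 5.63 percentage points, and 7.67 points without maltonis replicate 3. Each maltonis library lay above each untreated one. The number of regions whose H3K4me3 bases carried an H3K9me3 peak went from 1229, 1234 and 1235 to 1316, 1300 and 1247 of 1573. On the other bases of the same regions, the H3K9me3 share was 69.88%, 70.22% and 71.1% untreated and 75.48%, 73.77% and 67.45% after maltonis. The means were 70.4% ± 0.628 and 72.2% ± 4.23 (SD, n = 3), and the conditions overlapped through maltonis replicate 3. The difference of 1.83 percentage points was 4.22 points without that library, so the higher share was not confined to H3K4me3 bases.

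H3K4me3 and H3K27ac moved in opposite directions on the same bases. H3K4me3 peaks covered 66.2% ± 0.919 of the reference bases in untreated libraries and 71.9% ± 0.984 after maltonis (SD, n = 3). H3K27ac peaks covered 88.9% ± 0.313 of them untreated and 86.2% ± 0.582 after maltonis (SD, n = 3). Away from H3K4me3, H3K27ac covered 43.2% ± 1.08 of the bases of the regions untreated and 37.3% ± 0.979 after maltonis (SD, n = 3). In none of these 3 comparisons did the conditions overlap. With 3 libraries against 3, an exact test of a single library value could not go below 0.1, and none is given.

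**Figure D2:**
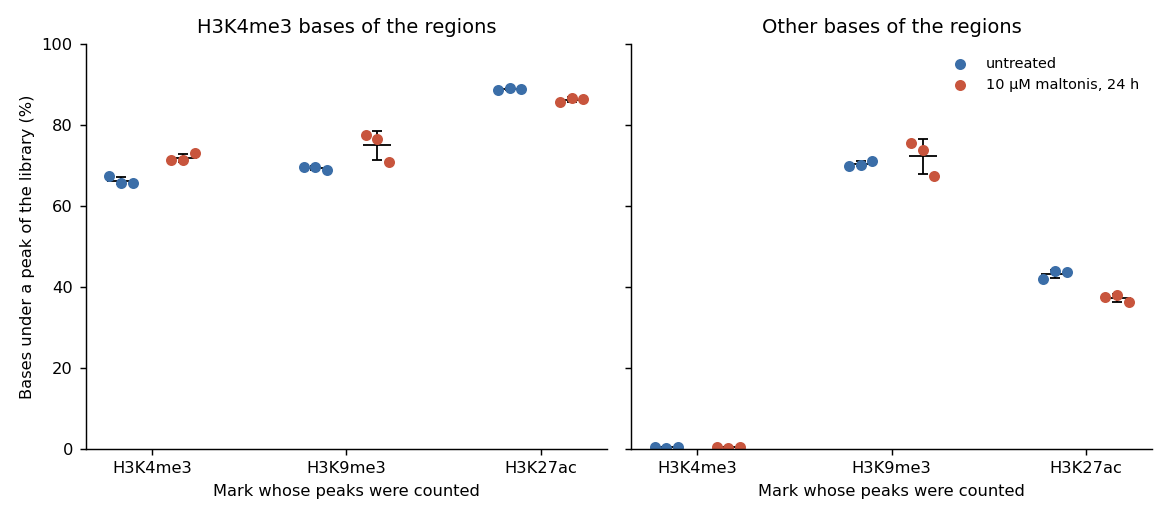
Share of the bases of the 1628 regions that lay under a peak of each library (%), for reference H3K4me3 bases (left) and all other bases (right), by the mark whose peaks were counted. Points are libraries, black bars the mean and SD over 3; on H3K4me3 bases the H3K9me3 share was 68.8% to 69.6% in untreated and 70.9% to 77.5% in maltonis libraries.

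The change in H3K9me3 reads relative to the median shared region varied with the kind of region. The median log2 fold change of reads was 0.20 in the 132 regions under 5 kb, 0.17 in the 569 of 5 to 10 kb, 0.10 in the 596 of 10 to 20 kb and 0.07 in the 331 of 20 kb or more. In shared regions without H3K4me3 the same width classes had medians of 0.00, -0.02, -0.03 and 0.03. Regions with H3K4me3 wholly inside had a median of 0.15 (1199 regions), and those where it crossed or covered an end had 0.05 (374 regions). By the within-list strength percentile of H3K4me3, the 405 regions at 75 or more had a median of 0.21, the 699 between 25 and 75 had 0.11 and the 524 under 25 had 0.06. Of the 181 regions with H3K27ac in fewer than 6 lists, 85.1% had a log2 fold change above 0 (median 0.19), against 60.3% of the 1447 with H3K27ac in all 6 (median 0.11), although all 9 called regions were among the latter. These medians are descriptions, and differences between them were not tested.

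The 9 regions with more H3K9me3 reads were between 4800 and 38200 bp wide, and 7 of them had H3K4me3 in all 6 lists. Their reads ranged from 37 to 233 in untreated libraries and from 133 to 506 after maltonis, and in each of the 9 every maltonis library lay above every untreated one. In 6 of the 9 the called lengths also did not overlap, so most of these calls came with a longer called region. Maltonis to untreated length ratios ran from 1.13 to 3.62, with a median of 1.58.

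The lowest p of these calls belonged to chr20:62170801-62209000, a region of 38200 bp. It had 210, 180 and 177 H3K9me3 reads in untreated libraries and 500, 506 and 458 after maltonis (log2 fold change 1.48 ± 0.117 SE, edgeR FDR = 0.000443). The called length went from 12200, 10600 and 11200 bp to 30600, 29200 and 28400 bp, while reads per kb stayed between 15.8 and 17.3 in all 6 libraries. Called peaks thus covered more of this region at a similar read density. Reads outside each library's own peaks were not available, so signal below the caller's threshold could not be compared. The length alone did not overlap between conditions but did not pass limma's test, whose variance is drawn toward a common value (log2 fold change 1.38 ± 0.185 SE, FDR = 0.341). Its H3K27ac region, chr20:62204201-62209200, had 188, 108 and 120 reads untreated and 54, 44 and 64 after maltonis (log2 fold change -1.31, edgeR FDR = 0.00191).

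At chr5:881201-893600 the H3K9me3 reads were called, and neither length nor density was. Reads were 148, 126 and 97 in untreated libraries and 320, 360 and 280 after maltonis (log2 fold change 1.48 ± 0.174 SE, edgeR FDR = 0.00283). Reads per kb were 20.0, 26.3 and 24.3, then 28.1, 29.5 and 34.2. Neither set overlapped between conditions. The log2 fold change was 1.00 ± 0.294 SE for called length (limma FDR = 0.579) and 0.49 ± 0.121 SE for reads per called length (edgeR FDR = 0.0489). The H3K4me3 region on it, 2230 to 2415 bp wide in all 6 libraries, did not pass the width test (limma FDR = 0.295).

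The highest fold change was at chr13:110029401-110047600, where H3K4me3 was found in 2 untreated and 2 maltonis lists. It had 37, 69 and 55 H3K9me3 reads untreated and 193, 262 and 157 after maltonis (log2 fold change 2.04 ± 0.254 SE, edgeR FDR = 0.00402). Its called length was 2600, 4400 and 4000 bp and then 12400, 16200 and 11200 bp, again without overlap. The calls at chr5:881201-893600 and chr13:110029401-110047600 were each lost when 1 of 4 libraries was left out (for the former untreated replicate 2 or 3 or maltonis replicate 1 or 2, for the latter untreated replicate 1 or 3 or maltonis replicate 1 or 2), with log2 fold changes that stayed between 1.31 and 2.12.

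**Figure D3:**
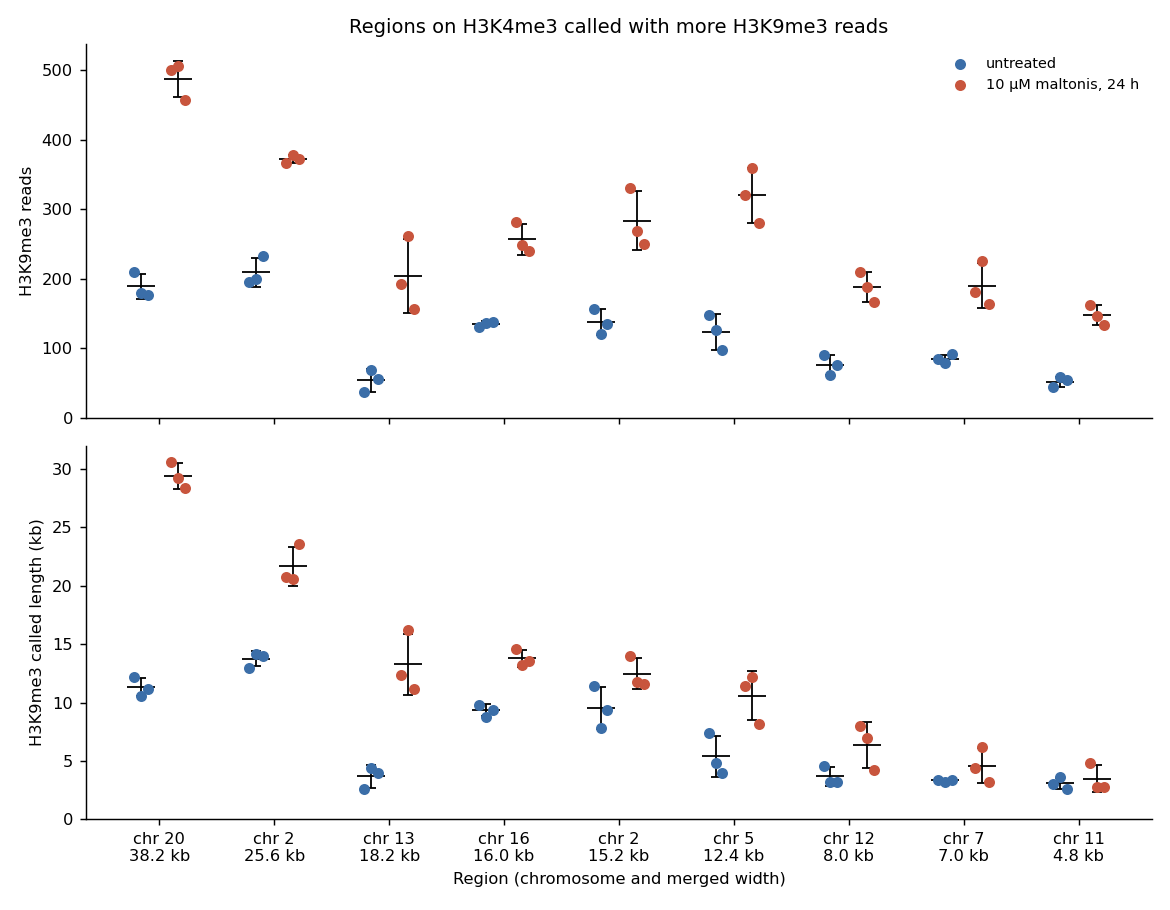
H3K9me3 reads (upper panel) and called length in kb (lower panel) in each of the 6 libraries for the 9 H3K9me3/H3K4me3 regions called with more reads, ordered by merged width. Points are libraries, black bars the mean and SD over 3; reads do not overlap between conditions in any of the 9 (37 to 233 untreated, 133 to 506 after maltonis, each region compared with itself), and called lengths do not overlap in 6.

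A test on reads per called length asked whether H3K9me3 became denser within the called part. Among the H3K9me3/H3K4me3 regions, 17 (1.04%) were denser after maltonis, against 0.119% of all regions tested, and 1 (0.0614%) was less dense, against 0.0422% of all. In the main fit, all 17 denser regions of the 14226 tested were H3K9me3/H3K4me3 regions. Of the 6 less dense ones 1 was, 3 had no H3K4me3 list and 2 had 1 or 2. Of the 17, 15 had H3K4me3 in all 6 lists, their log2 fold changes ran from 0.60 to 1.46, and in each of them every maltonis library had more reads per kb than every untreated one. Their length ratios had a median of 1.00. The median over the 1628 regions was 0.05, against 0.00 over all tested. Leaving out 1 library left 7 to 12 denser regions. These were 7 of the 9 denser over all tested without maltonis replicate 1, and 9 of 10 without maltonis replicate 2. They were 8 of 8 without untreated replicate 1 or 2, 10 of 10 without untreated replicate 3 and 12 of 12 without maltonis replicate 3. With reads in listed peaks as library size they were 21 of 24, and with a replicate block 18 of 20. At an FDR of 0.05 with no minimum fold change they were 62 of 94. Less dense regions, with 1 library left out, numbered 0 of 1 over all tested without maltonis replicate 1. They were 2 of 3 without untreated replicate 1 or maltonis replicate 2, and 3 of 5 without untreated replicate 2.

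The largest change in density was at chr11:63436201-63441000, 4800 bp wide. Its H3K9me3 reads per kb were 14.7, 16.1 and 20.8 in untreated libraries and 33.8, 52.5 and 47.5 after maltonis (log2 fold change 1.46 ± 0.181 SE, edgeR FDR = 5.75e-05). Reads alone were 44, 58 and 54, then 162, 147 and 133. This region was called in both tests. The H3K4me3 peak on it also widened, from 1678, 1617 and 1491 bp to 2013, 2208 and 2137 bp (log2 fold change 0.41, limma FDR = 0.00770), and its H3K27ac reads did not pass the test (log2 fold change -0.01, edgeR FDR = 0.945).

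A wider region with a smaller and tighter change was chr22:31361001-31377000. Reads per kb were 23.6, 24.7 and 23.2 untreated and 34.6, 32.3 and 34.3 after maltonis (log2 fold change 0.60 ± 0.0752 SE, edgeR FDR = 5.75e-05). Called length differed little, 14000 to 15200 bp and then 12600 to 15800 bp. The call was lost without untreated replicate 3 and without maltonis replicate 3, where the log2 fold change fell just below 0.58, to 0.576 and 0.567.

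At chr2:60316801-60332000, H3K9me3 became denser, and H3K4me3 was called only after maltonis. No untreated library and all 3 maltonis libraries had an H3K4me3 peak there. H3K9me3 reads per kb were 13.8, 15.5 and 14.4 untreated and 23.6, 22.8 and 21.6 after maltonis (log2 fold change 0.75 ± 0.103 SE, edgeR FDR = 0.000223). Its H3K27ac reads were 2809, 2942 and 3067, then 3341, 4004 and 3696 (log2 fold change 0.37, edgeR FDR = 4.83e-06), which is under the minimum fold change of 0.58. H3K9me3 reads per kb and H3K27ac reads were thus higher in each maltonis library than in each untreated one. The region met the rule of 3 H3K4me3 lists only through the maltonis libraries, so its H3K4me3 pattern follows from the choice and is not a separate result.

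The single region called less dense, chr2:65088401-65093200, had nearly the same reads in both conditions, 62, 52 and 39 untreated and 69, 39 and 39 after maltonis. Its called length went from 1800, 1000 and 1000 bp to 4800, 2200 and 2800 bp. Reads per kb accordingly fell from 34.4, 52.0 and 39.0 to 14.4, 17.7 and 13.9 (log2 fold change -1.33 ± 0.198 SE, edgeR FDR = 0.000512). Without maltonis replicate 1 this call was lost, at a log2 fold change of -1.26.

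**Figure D4:**
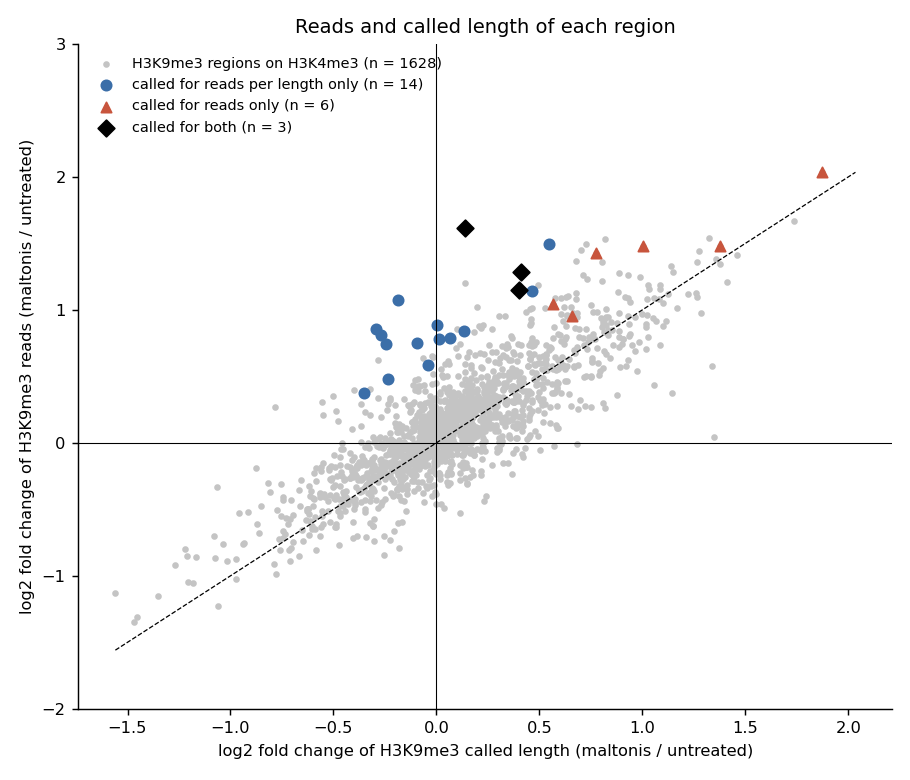
Log2 fold change (maltonis over untreated) of H3K9me3 reads against that of H3K9me3 called length for the 1628 regions, with the regions called for reads (triangles), for reads per called length (circles) or for both (diamonds). On the dashed line reads and length change equally; 14 regions were called for density only, 6 for reads only and 3 for both.

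Reads and called length of H3K9me3 moved together across the regions (Pearson r = 0.824, Spearman rho = 0.788 over 1628 regions), as they share the same peaks and libraries. Fold changes of H3K9me3 reads and of H3K4me3 width were nearly unrelated (r = -0.0227, rho = -0.0345 over the 1072 regions with a single 6-list H3K4me3 region). With H3K27ac reads the correlation was weak (r = 0.118, rho = 0.119 over 1207 regions with a single 6-list H3K27ac region). These are descriptions across regions of the same libraries, and regions are not replicates.

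H3K4me3 was wider after maltonis on the H3K9me3/H3K4me3 regions, as it was elsewhere. Of the H3K4me3 regions called in all 6 lists, 1253 lay on them and 11217 elsewhere. Median widths on them were 1546, 1508 and 1485 bp in untreated libraries and 1737, 1785 and 1775 bp after maltonis, a difference of 252.7 bp. Elsewhere the difference was 252.0 bp. By limma, 397 of the 1253 (31.7%) were wider, against 38.5% of all 12470 tested, and 33 (2.63%) were narrower, against 1.76%. The median log2 fold change of width was 0.16 on the H3K9me3/H3K4me3 regions and 0.19 over all tested. Without maltonis replicate 2 the wider regions numbered 255 (20.4%, against 24.9% of all tested).

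The H3K4me3 regions with the lowest p differed widely between conditions with little spread. The H3K4me3 peak at chr6:53408616-53412955 was 1615, 1618 and 1653 bp wide untreated and 4107, 4181 and 4259 bp after maltonis (log2 fold change 1.36 ± 0.0340 SE, limma FDR = 0.000512). At chr11:67034161-67037464 widths went from 1612, 1595 and 1566 bp to 3281, 3285 and 3158 bp (log2 fold change 1.03 ± 0.0356 SE, limma FDR = 0.000512). At chr2:70313125-70316675 they went from 1933, 1909 and 1868 bp to 3463, 3467 and 3526 bp (log2 fold change 0.87 ± 0.0332 SE, limma FDR = 0.000522). On all 3 the conditions lay far apart, and the H3K9me3 reads of the underlying regions did not pass the test (edgeR FDR from 0.480 to 0.586).

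Narrower H3K4me3 was found at fewer places. The peak at chr2:172965050-172968235 was 3116, 2978 and 3082 bp wide untreated and 1916, 1789 and 1764 bp after maltonis (log2 fold change -0.75 ± 0.0469 SE, limma FDR = 0.00117). It lay in chr2:172944201-172969800, one of the 9 regions with more H3K9me3 reads: 195, 199 and 233 untreated and 366, 378 and 372 after maltonis (log2 fold change 0.96, edgeR FDR = 0.00455). The wider of the H3K27ac regions on it had 851, 876 and 767 reads untreated and 411, 461 and 455 after maltonis (log2 fold change -0.87, edgeR FDR = 5.02e-06). The width of this H3K4me3 peak and the reads of this H3K27ac region were lower, and the H3K9me3 reads higher, in every maltonis library than in every untreated one.

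The other narrower peaks named by the same rule were on chromosome 6. At chr6:2763986-2767097 the width went from 3075, 3068 and 3058 bp to 2464, 2480 and 2495 bp (log2 fold change -0.31 ± 0.0303 SE, limma FDR = 0.00268). At chr6:4775350-4778773 it went from 2866, 3011 and 2941 bp to 1316, 1595 and 1661 bp (log2 fold change -0.95 ± 0.0960 SE, limma FDR = 0.00277). H3K9me3 reads on neither passed the test.

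H3K27ac was called over less sequence on the H3K9me3/H3K4me3 regions after maltonis, as elsewhere. Of the H3K27ac regions with a peak in all 6 lists, 1656 lay on 1451 of the 1628 regions. Their median called length was 8800, 9400 and 9600 bp in untreated libraries and 8000, 7800 and 7400 bp after maltonis, without overlap, a mean difference of -1533 bp. Elsewhere the mean difference was -1067 bp, from 6000 ± 200 to 4933 ± 305.5 bp (SD, n = 3). Relative to the untreated mean, the maltonis mean was 0.835 on the H3K9me3/H3K4me3 regions and 0.822 elsewhere, so the relative loss was not larger on them. The median log2 fold change of called length was -0.16 on them and -0.20 over all tested. Reads per kb on the H3K9me3/H3K4me3 regions were 100.7, 102.2 and 102.1 untreated and 98.3, 115.7 and 112.8 after maltonis, and the conditions overlapped. By limma, 171 of the 1656 (10.3%) were shorter, against 10.5% of the 20018 tested, and 21 (1.27%) were longer, against 0.734%. Leaving out any 1 library left 4 to 10 longer (0.242% to 0.604%, against 0.255% to 0.345% of all). It left 64 to 103 shorter (3.86% to 6.22%, against 3.68% to 6.56%), except that 116 were shorter without maltonis replicate 1 (7%, against 7.97%).

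In reads, 105 of these H3K27ac regions (6.34%) were higher after maltonis, against 8.18% of all tested, and 295 (17.8%) were lower, against 19.2%. For reads per called length, 35 (2.11%) were denser, against 2.13% of all, and 93 (5.62%) were less dense, against 4.58%. The direction of the density calls depends on the scaling. When library sizes were scaled on reads before the length was taken into account, 103 were denser and 50 less dense, and over all tested regions 1178 were denser and 459 less dense in place of 427 and 916, since this scaling moved the median over all regions from 0.00 to 0.16. Denser and less dense are thus relative to the median region. Leaving out any 1 library gave 10 to 21 denser (0.604% to 1.27%, against 0.744% to 1.06% of all). Leaving out any maltonis library gave 51 to 53 less dense (3.08% to 3.2%, against 1.68% to 1.82%).

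The share of H3K27ac calls varied with the H3K4me3 pattern of the regions. On the 231 regions with more untreated than maltonis H3K4me3 lists lay 193 H3K27ac regions, of which 90 (46.6%) had fewer reads and 6 (3.11%) more, with a median log2 fold change of -0.49. On the 41 of them with no maltonis H3K4me3 list, 17 of 29 H3K27ac regions had fewer reads and none more. Of the 1242 H3K27ac regions on regions with H3K4me3 in all 6 lists, 156 (12.6%) had fewer reads and 70 (5.64%) more. On the 193 regions with more maltonis lists, 45 of 205 (21.95%) had fewer and 22 (10.7%) more. Median log2 fold changes of H3K9me3 reads in the same 3 classes were 0.10, 0.14 and 0.03. H3K4me3 lists entered the choice of the regions, so these shares are given as a description.

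**Figure D5:**
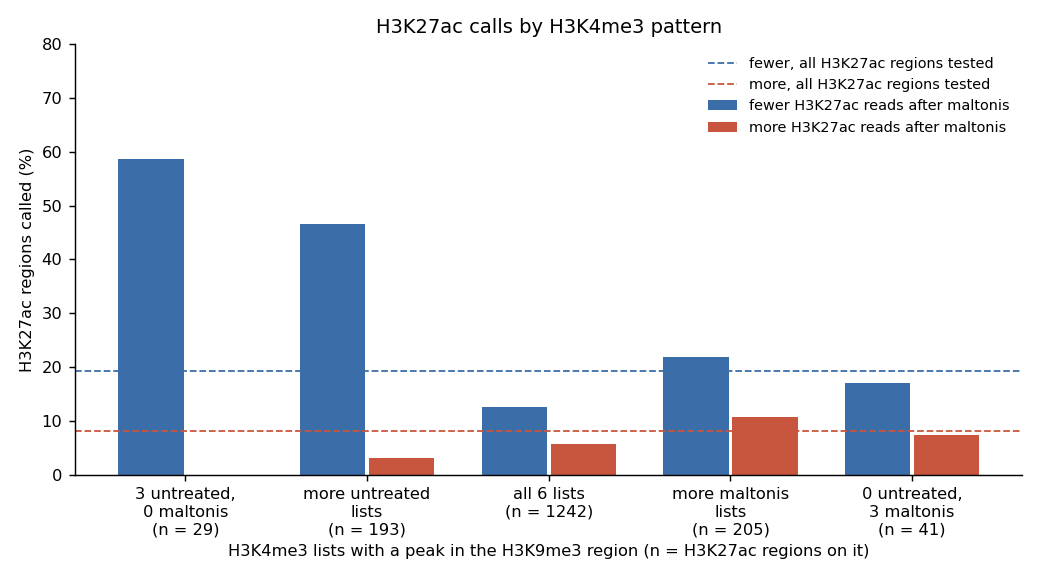
Share of H3K27ac regions called with fewer (blue) or more (red) reads after maltonis (%, bars from 0), by how many untreated and maltonis H3K4me3 lists had a peak in the H3K9me3/H3K4me3 region. The outermost classes are subsets of their neighbours; dashed lines give the shares over all 20018 H3K27ac regions tested, 19.2% fewer and 8.18% more, and the share with fewer reads was 46.6% where H3K4me3 was found in more untreated lists.

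The H3K27ac regions with the lowest p that had gained reads were very broad. On chr6:25999401-26289400, a region of 290000 bp that touched 5 H3K9me3/H3K4me3 regions, reads were 33386, 34275 and 33851 untreated and 67939, 77668 and 72980 after maltonis (log2 fold change 1.15 ± 0.0122 SE, edgeR FDR = 2.90e-11). It was also denser, with 153, 154 and 155 reads per kb untreated and 237, 274 and 259 after maltonis (log2 fold change 0.62 ± 0.0189 SE, edgeR FDR = 6.68e-07). On its 5 H3K9me3/H3K4me3 regions the H3K9me3 fold changes ran from -0.14 to 1.16 on the log2 scale and none passed (lowest edgeR FDR = 0.0505). Nearby, chr6:27752801-27874400 had 18396, 19016 and 18815 reads untreated and 38393, 43941 and 41299 after maltonis (log2 fold change 1.18 ± 0.0123 SE, edgeR FDR = 2.90e-11). At chr7:6360001-6490000 reads went from 10662, 11195 and 11170 to 16212, 18716 and 17786 (log2 fold change 0.72 ± 0.0161 SE, edgeR FDR = 4.04e-09).

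Density also rose at chr7:1945201-1969200, where reads per kb were 119.5, 128.8 and 121.5 untreated and 218.8, 264.2 and 231.6 after maltonis (log2 fold change 0.83 ± 0.0619 SE, edgeR FDR = 0.000150). The H3K27ac regions that lengthened with the lowest p were narrow in untreated cells. At chr1:182447801-182464000 the called length went from 2400, 3800 and 2800 bp to 15600, 12600 and 11000 bp (log2 fold change 2.13 ± 0.218 SE, limma FDR = 0.00614). At chr6:27139601-27148000 it went from 2800, 2800 and 2200 bp to 7400, 6000 and 5600 bp (log2 fold change 1.28 ± 0.167 SE, limma FDR = 0.00922). At chr15:101076401-101082600 it went from 2200, 2000 and 2000 bp to 6200, 4000 and 5600 bp (log2 fold change 1.33 ± 0.186 SE, limma FDR = 0.0113).

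H3K27ac fell on several regions in which the H3K9me3 reads did not pass the test. On chr7:157325401-157373200 reads were 9340, 9564 and 9432 untreated and 1984, 2164 and 1939 after maltonis (log2 fold change -2.17 ± 0.0302 SE, edgeR FDR = 1.85e-10), and reads per kb went from between 200 and 205 to between 72.9 and 97.5. This H3K27ac region touched 2 H3K9me3/H3K4me3 regions. One of them, chr7:157347001-157369400, kept H3K4me3 in all 6 lists with widths of 2157 to 2553 bp, and the other, chr7:157332601-157346600, had it in 3 untreated and 1 maltonis list. H3K9me3 reads passed the test in neither (edgeR FDR = 0.150 and 0.489).

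At chr17:33200601-33221200 both reads and length of H3K27ac fell. Reads were 1644, 1809 and 1771 untreated and 277, 347 and 281 after maltonis (log2 fold change -2.49 ± 0.0570 SE, edgeR FDR = 4.43e-09), and the called length went from 18200, 19400 and 19600 bp to 6200, 6000 and 5800 bp. At chr11:122533001-122631400 reads went from 8519, 8838 and 8673 to 4140, 4626 and 4406 (log2 fold change -0.94 ± 0.0203 SE, edgeR FDR = 3.31e-09). H3K9me3 on the regions beneath them had log2 fold changes of -1.05 and -0.31 that did not pass (edgeR FDR = 0.0910 and 0.735).

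The remaining losses by this rule were in density and in length. Less dense H3K27ac was found at chr16:70705801-70810800, with 164.1, 163.5 and 167.5 reads per kb untreated and 109.8, 123.8 and 122.6 after maltonis (log2 fold change -0.59 ± 0.0299 SE, edgeR FDR = 1.57e-05), a call that was lost under the scaling on reads and without maltonis replicate 2. At chr10:134345401-134387200 reads per kb went from 174.6, 172.3 and 177.2 to 90.3, 111.8 and 105.2 (log2 fold change -0.89 ± 0.0475 SE, edgeR FDR = 1.66e-05). Shorter H3K27ac was found at chr9:7208001-7219200, from 10000, 11200 and 10200 bp to 2800, 3200 and 3200 bp (log2 fold change -1.77 ± 0.121 SE, limma FDR = 0.00368). At chr6:139955201-139967800 the length went from 11400, 12200 and 9800 bp to 2800, 3000 and 3200 bp (log2 fold change -1.89 ± 0.134 SE, limma FDR = 0.00368).

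The regions with the highest H3K9me3 read density had H3K4me3 widths that hardly varied. At chr1:121478401-121485600, H3K9me3 reads per kb were 1988, 2263 and 2438 untreated and 2510, 2376 and 2362 after maltonis, and an H3K4me3 peak on it was 1295 to 1299 bp wide in all 6 libraries. At chr10:42596801-42602200 reads per kb were 880.2, 998.6 and 1012 untreated and 1044, 1036 and 1038 after maltonis, with H3K4me3 widths of 3581 to 3595 bp. At chr18:18511001-18521000 reads per kb were 774.0, 802.1 and 762.8 and then 962.1, 959.7 and 877.9, with H3K4me3 widths of 4504 to 4525 bp. In the test of reads per called length all 3 passed the FDR with fold changes under the minimum, so none was called denser. The log2 fold changes, in the same order, were 0.22 (edgeR FDR = 0.00403), 0.21 (edgeR FDR = 0.00375) and 0.36 (edgeR FDR = 8.17e-08). All 3 lie near a centromere, where repeats are abundant, and the part that repeat reads have in these values was not tested.

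The longest regions were nearly covered by H3K9me3 in every library. On chr4:35401-496200, of 460800 bp, called length ran from 448800 to 454800 bp and reads were 18090, 18537 and 18845 untreated and 17813, 17624 and 15863 after maltonis (log2 fold change 0.01 ± 0.0296 SE, edgeR FDR = 0.963). On chr8:128473801-128850200, of 376400 bp, reads were 7156, 6942 and 6937 and then 8777, 8688 and 7863 (log2 fold change 0.39 ± 0.0416 SE, edgeR FDR = 0.00186), with 20.3, 20.4 and 20.4 reads per kb untreated and 23.9, 23.9 and 21.8 after maltonis. The broadest H3K27ac region that touched it, chr8:128781601-129035600, lay mostly beyond its end. The reads of that H3K27ac region went from 21421, 22579 and 22611 to 15561, 18997 and 17508 (log2 fold change -0.31, edgeR FDR = 2.03e-06). On chr10:37730601-38103000, of 372400 bp, H3K9me3 reads were 13492, 13605 and 13725 and then 15115, 15281 and 13620 (log2 fold change 0.23 ± 0.0335 SE, edgeR FDR = 0.00725). The fold changes on chromosomes 8 and 10 passed the FDR but not the minimum fold change, so none of the 3 was called.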

How the data were processed

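ChIP-seq peak lists of 18 libraries (3 marks, 2 conditions, 3 replicates; 6 groups, taken from the sample titles) were used. Per the study's methods and the submitters' processing notes, which name BWA, SAMtools, MACS2, SICER and hg19 without versions, peaks were called per library by the authors, with MACS2 for H3K4me3 and epic2 for H3K9me3 and H3K27ac. Each deposited H3K4me3 peak has a score, a fold enrichment over the caller's background, a −log10 p and a −log10 q value. Each deposited epic2 peak has an unnormalised read count and an island score. Control libraries and caller parameters are not given in the sources used here. Since counts refer to each library's own boundaries, they move with the length called, which is why reads per called length were tested too. Strength percentiles rank the −log10 q or island score within a list.

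Peaks of a mark were merged at an overlap of at least 1 bp, with counts and lengths summed per library. Regions called in all 6 lists were fitted together, without a filter on low values: reads with edgeR 4.0.16 (quasi-likelihood, TMM, called length as an offset in the density fits, for which TMM was taken on length-adjusted reads; SE from the F statistic) and lengths with limma 3.58.1 on log2 bp, with Benjamini-Hochberg adjustment. Read calls needed an FDR no higher than 0.01 with a minimum log2 fold change of 0.58, length calls an FDR no higher than 0.05. R was 4.3.3, DESeq2 1.42.0, Python 3.11.15. Scripts were tested on simulated data. The regions and lists were chosen with earlier results of these data known. Named regions are, per fit and direction, the 3 called on H3K9me3/H3K4me3 regions with the lowest p, plus the 3 with the highest H3K9me3 density and the 3 longest; chr2:172944201-172969800 also appears as a called region. Alternatives were other scalings, filters, thresholds, DESeq2, a replicate block, single libraries left out, the strongest 75% of peaks, a common lowest island score and stricter choices of regions. The lists hold no expression values, so markers of the cell line were not checked. Gene annotation of this build was not used here.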

Additional observations from a re-analysis of the deposited data

How the results depend on the processing

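Counts below are of H3K9me3/H3K4me3 regions, or of H3K27ac or H3K4me3 regions on them. At an FDR of 0.05 with no minimum fold change, H3K9me3 gave 69 with more reads (4.24%, against 1.2% of all tested) and 6 with fewer (0.369%, against 0.225%), 62 denser (3.81%, against 0.661%) and 10 less dense (0.614%, against 0.288%). H3K27ac gave 571 with more reads (34.5%, against 34.0%) and 607 with fewer (36.7%, against 33.7%), 181 denser (10.9%, against 10.2%) and 281 less dense (17.0%, against 12.9%). DESeq2 called 49 with more and 8 with fewer H3K9me3 reads, of 132 and 39 over all tested. Among regions of similar length in all libraries (107 for H3K9me3, 260 for H3K27ac), 0 had more H3K9me3 reads, and 2 had more and 8 fewer H3K27ac reads; fewer regions were tested. With reads in listed peaks as library size, 103 H3K27ac regions were denser (6.22%, against 6.08%) and 50 less dense (3.02%, against 2.3%). Scaling by TMM on reads before the length offset, chosen after seeing the data, gave the same counts, against 5.88% and 2.29% of all. With the strongest 75% of peaks, 0 H3K9me3 regions were less dense (against 0.018% of all) and 23 H3K27ac regions denser (1.48%, against 1.56%). With a common lowest island score 0 H3K9me3 regions were less dense, against 0.031% of all. On the bp scale 1 H3K9me3 region was longer (0.0614%, against 0.00703%). Requiring H3K4me3 in all 6 lists, which leaves fewer regions, gave 156 H3K27ac regions with fewer reads (12.6%, against 19.2%). It gave 23 denser (1.85%, against 2.13%), 43 less dense (3.46%, against 4.58%) and 88 shorter (7.09%, against 10.5%). The median length difference was then -1133 bp. Elsewhere the cause was not tested.

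Leaving out 1 library gave 1 to 3 regions with more H3K9me3 reads (0.0614% to 0.184%, against 0.00703% to 0.0844% of all). It gave 7 to 12 denser (0.43% to 0.737%, against 0.0562% to 0.0844%) and 0 to 3 less dense (0% to 0.184%, against 0.00703% to 0.0351%). For H3K27ac it gave 10 to 21 denser (0.604% to 1.27%, against 0.744% to 1.06%) and 51 to 69 less dense (3.08% to 4.17%, against 1.68% to 2.72%). It also gave 4 to 10 longer (0.242% to 0.604%, against 0.255% to 0.345%) and 64 to 116 shorter (3.86% to 7%, against 3.68% to 7.97%). Wider H3K4me3 numbered 255 to 317 (20.4% to 25.3%, against 24.9% to 30.7%).

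Replicate numbers did not pair the libraries: deviations of same-numbered libraries correlated between -0.0192 and 0.0296. With a replicate block all the same, 3 regions had more H3K9me3 reads (0.184%, against 0.0773% of all). Of the H3K27ac regions, 23 were denser (1.39%, against 1.34%), 4 longer (0.242%, against 0.145%) and 59 shorter (3.56%, against 4.07%). Of the H3K4me3 regions, 214 were wider (17.1%, against 20.7%) and 19 narrower (1.52%, against 1.09%).

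Of 31 named results, 26 kept their call under each alternative run on them, 5 lost it under 1 or more and 0 reversed. The limits are the counts per region and 3 libraries per group; a region with few H3K9me3 reads can show only large changes, and the read values follow boundaries that differ between libraries.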

Other observations

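Regions outside the main set held part of the H3K9me3 calls. Of the 36 shared H3K9me3 regions with more reads after maltonis, 9 were H3K9me3/H3K4me3 regions, 10 had H3K4me3 in 1 or 2 lists, 10 had none, and 7 lay on chromosomes 19 or X, which were not considered when the regions were chosen. The 1297 regions with H3K4me3 in 1 or 2 lists had a median called length of 7133 ± 115.5 bp untreated and 7133 ± 642.9 bp after maltonis (SD, n = 3), a difference of 0 bp that became 366.7 bp without maltonis replicate 3. Their strength percentile went from 82.8 ± 0.231 to 79.6 ± 0.897 (SD, n = 3), without overlap between conditions, a difference of -3.27, and of -2.76 without that library. The lists held fewer peaks after maltonis, which also moves this percentile. Their share of the reads in H3K9me3 peaks went from 8.13% ± 0.102 to 8.55% ± 0.0655 (SD, n = 3), also without overlap, and the difference of 0.423 percentage points was 0.386 without that library.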
